A study of Mus musculus with 1078 samples.

Results

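Clusters 7 and 12 of the tumor endothelial cells (TECs) were taken as the authors deposited them: every cell that carried their endothelial label and their cluster number 7 or 12 at Louvain resolution 0.4. There were 81 such cells among 1078, 58 in cluster 7 and 23 in cluster 12, and they made up 40.3% of the TECs. The other 120 TECs were all in cluster 3, and no cell of the 3 clusters carried another label. The tumors were GL261 gliomas, which were implanted into the brains of C57Bl/6 mice of the line's own strain, and the cells were profiled by Smart-seq2, which reads full-length cDNA of 1 cell per well. All mice carried tumors. They received PBS and IgG (control), losartan, an angiotensin receptor blocker, at 60 mg/kg/day with IgG, 3 doses of anti-PD1, each of 200 μg per mouse, with PBS, or losartan+anti-PD1. The cells were TEC-enriched by a CD31 sort, with 1 CD31-positive plate per treatment. The labels tie no cell to a mouse, so each treatment is 1 sample, no test was run, and plate and treatment cannot be told apart.

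Endothelial cells of the healthy brain form the blood-brain barrier: claudin-5 (Cldn5) seals their junctions, transporters such as Glut1 (Slc2a1) carry nutrients, and Wnt signaling through Lef1 maintains both. Brain vessels of this kind hold little Plvap, the protein of the diaphragms that span fenestrae and caveolae, whereas vessels of peripheral organs and many tumors carry it. Sprouting vessels are led by tip cells, which are known for Apln, Angpt2 and Adm, and their stalk and venous parts for the apelin receptor Aplnr. Capillaries that handle lipoproteins carry Gpihbp1, which holds lipoprotein lipase (Lpl) on the vessel wall.

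The members were unevenly spread over the plates. On the CD31-positive plates, the control plate held 28 cells of cluster 7, 12 of cluster 12 and 3 of cluster 3, and the losartan plate 24, 4 and 29. The anti-PD1 plate held 1, 0 and 78, and the losartan+anti-PD1 plate 4, 7 and 5. Over all plates, 40 of 43 control TECs were members (exact binomial 95% interval 80.9% to 98.5%). So were 29 of 58 TECs of the losartan group (36.6% to 63.4%), 1 of 84 of the anti-PD1 group (0.0301% to 6.46%) and 11 of 16 of the combined group (41.3% to 89%). These intervals cover counting error over cells only. Cluster 12 was 27.9% of TECs on the control plate (15.3 to 43.7), 7.02% on the losartan plate (1.95 to 17) and 43.8% on the losartan+anti-PD1 plate (19.8 to 70.1), whereas it was 0 of 79 TECs on the anti-PD1 plate (upper limit of the same interval 4.56%).

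**Figure D1:**
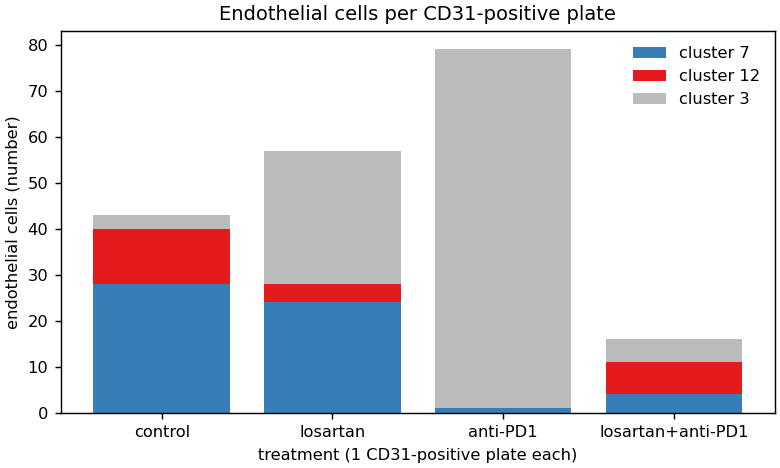
Number of endothelial cells (y axis) of clusters 7, 12 and 3 on each of the 4 CD31-positive plates (x axis, 1 plate per treatment). The control plate held 28, 12 and 3 cells of the clusters, and the anti-PD1 plate 1, 0 and 78.

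Read depth is not kept in TPM, and the genes detected per cell were used in its place. Cells of cluster 7 had a median of 4252 genes (range 1485 to 7682), cells of cluster 12 had 1660 (1023 to 3717) and cells of cluster 3 had 2714 (1245 to 7171). Cluster 12 also had fewer housekeeping genes, with a median of 41 against 65 in cluster 7 and 58 in cluster 3, and its 10 highest genes took a median of 28.8% of each cell against 20% in cluster 7 and 18.3% in cluster 3. The part of this gap in the differences below was not tested, and values among cells with at most 2000 genes detected are given beside some of them. Fewer genes per cell and less RNA per cell cannot be told apart.

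Both clusters held endothelial markers. Of 16 pan-endothelial genes, 16 were above 0 in at least 25% of cells in cluster 7 and 14 in cluster 12, where the exceptions were Cldn5 and Erg, an endothelial transcription factor. Egfl7, a secreted endothelial factor, was at 509 (cluster 7) and 496 (cluster 12) on the control plate, in units per 100000 (TP100K), to which each cell was scaled. Cdh5, the cadherin of endothelial junctions, was above 0 in 28 of 28 and 9 of 12 of these cells, and Pecam1, the CD31 of the sort, in 27 and 12. Summed over the marker lists of other cell types, the median cell of both clusters was at 0 for mural cells, fibroblasts, lymphatic endothelium, leukocytes, red blood cells and neurons, but single cells were not. The highest cell was at 38 for mural cells, 200.9 for lymphatic endothelium, 93.3 for leukocytes and 143.2 for red blood cells, all in cluster 7, and at 120.6 for macrophages and microglia in cluster 12. Doublets were not called. Prox1, which defines lymphatic endothelium, was at 0 in every TEC. The sum over 15 glioma and glial progenitor genes had a median of 66.9 in cluster 7, 0 in cluster 12 and 14.2 in cluster 3, against 335 in malignant cells of the same sort, and most of it was Dbi, a lipid-binding protein also found outside tumor cells (69.02 in cluster 7 and 12.4 in cluster 12 on the control plate). The sum over 9 astrocyte genes had a median of 11.6 in cluster 7, carried by Gja1, a gap junction gene that endothelium also holds.

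The 6 genes had been proposed to mark the clusters, and they did not do so alike. Igfbp7, a secreted insulin-like growth factor binding protein of tumor vessels, was the one that held throughout: it was above 0 in 57 of 57 cells of cluster 7 and 23 of 23 of cluster 12. Its mean was 378 (SD 220.6 over cells) in cluster 7 and 452 (SD 333) in cluster 12 on the control plate, 250 and 592 on the losartan plate and 236.1 and 362 on the losartan+anti-PD1 plate, whereas cluster 3 was at 60.5, 55.8 and 80.2 on the losartan, anti-PD1 and losartan+anti-PD1 plates. Single cells overlapped, with up to 328 in cluster 3 and down to 0.656 in cluster 7 and 2.47 in cluster 12. Igfbp3, its relative that binds circulating growth factor, was above 0 in 53 of 57 cells of cluster 7, 20 of 23 of cluster 12 and 21.7% of cluster 3, with medians of 51.04, 104.7 and 0.

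Scgb3a1, a small secreted protein, was foremost a gene of cluster 7, above 0 in 46 of 57 cells (80.7%, 95% interval 68.1 to 89.95) against 6 of 23 in cluster 12 (26.1%, 10.2 to 48.4) and 18.3% in cluster 3. On the control plate the mean of 138.3 in cluster 12 came from 3 of 12 cells, 1 of them at 1406, and the log2 ratio of cluster 7 over 12 was 0.78 with and 3.09 without the highest cell of each cluster. Lrg1, an acute phase glycoprotein of venous endothelium, was above 0 in 42, 10 and 21 cells of clusters 7, 12 and 3. In cluster 7 its mean was 61.3 on the control plate and 225.9 on the losartan plate, and in cluster 12 117.7 and 1.75. Its log2 ratio of clusters 7 and 12 over 3 was 3.51 on the losartan plate and −0.69 on the losartan+anti-PD1 plate. Emcn, a sialomucin of veins and capillaries, did not separate the clusters from cluster 3, with a log2 ratio of −0.17 that becomes 1.33 at the 75th-percentile scale described below. Emcn was above 0 in 47 of 57 cells of cluster 7, 17 of 23 of cluster 12 and 73.9% of cluster 3. Plvap was a gene of cluster 12 alone among the 3: it was above 0 in 23 of 23 cells at 24.1 to 542, against 5 of 57 in cluster 7 (at most 31.5) and 6.96% of cluster 3. On the control plate the ratios of cluster 7 over 12 for Igfbp7 (−0.26), Igfbp3 (−1.74) and Lrg1 (−0.93) all turn positive at the 75th-percentile scale (1.35, 0.27 and 0.75), so which cluster holds more of them was not settled. The clusters were made from these same genes and all mice carried tumors, so the values describe the clusters and do not test the name of tumor-type endothelium.

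**Figure D2:**
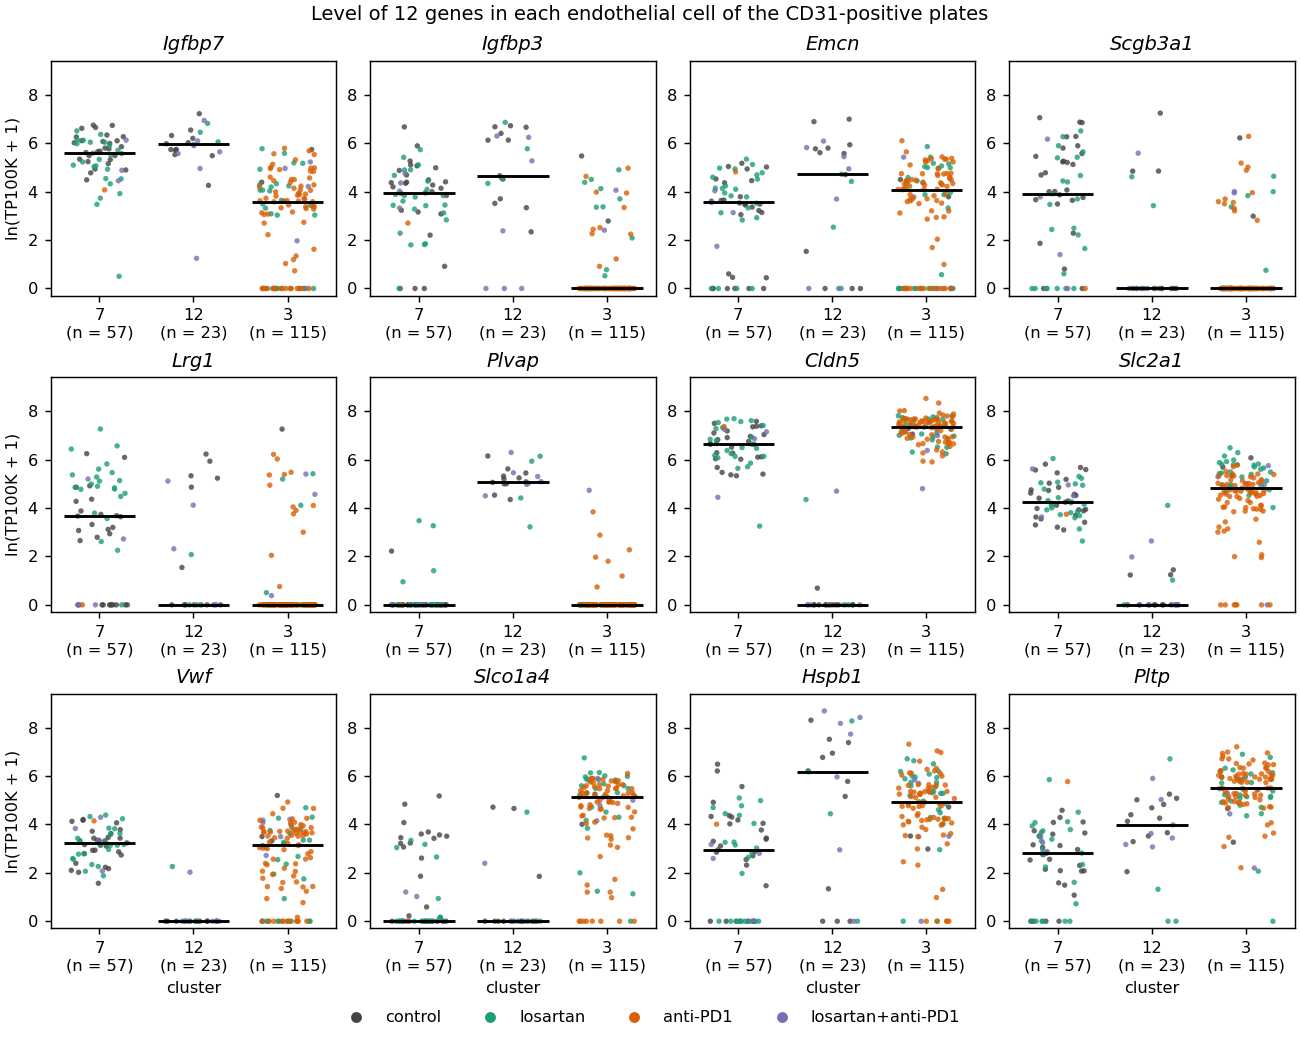
Level of 12 genes in each endothelial cell of the CD31-positive plates, as ln(TP100K + 1) on the y axis, by cluster on the x axis (57 cells of cluster 7, 23 of cluster 12 and the cluster 3 cells of those plates), with points coloured by treatment and a bar at the median. Igfbp7 is high in clusters 7 and 12, Plvap in 23 of 23 cells of cluster 12, and Cldn5 in 57 of 57 cells of cluster 7 and in every cell of cluster 3.

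What the clusters shared against cluster 3 was described on the losartan plate, the one with the most cells on both sides (28 against 29, of which 24 of the 28 were of cluster 7). Ratios are log2 of the mean TP100K plus 1, and a gene was taken as different at 2-fold. They describe these cells only, since the clusters were made from the same genes, and against a group at 0 they depend on the added 1, so such genes are given by their levels. A gene was compared where at least 25% of the cells on one side held it. Of 7246 such genes, 1156 (16%) were at least 2-fold higher in clusters 7 and 12 and 1115 (15.4%) in cluster 3, and the median over all was −0.01. On the losartan+anti-PD1 plate (11 cells, 7 of cluster 12, against 5), 57.6% of the first set and 61.4% of the second kept their sign, against 49.5% and 49.6% of all genes tested. Scaling each cell to the 75th percentile of its values above 0, in place of its sum, moved the median of all genes by 0.86, from −0.01 to 0.86, and every direction that turns at that scale is named where it is given.

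Among lists with at least 5 genes tested, sprouting genes had the highest median. Of 24 genes of tip cells and sprouting, 17 passed the filter, with a median log2 ratio of 2.11. In clusters 7 and 12, 11 were at least 2-fold higher (64.7%, against 16% of all genes) and 1 was lower (5.88%, against 15.4%). Taken alone, cluster 7 had a median of 2.13 over cluster 3, and the 4 cells of cluster 12 had 1.39, where all genes had a median of −0.90. Trp53i11, a p53-induced membrane protein, was at 54.6 in cluster 7 and 0.385 in cluster 3 on the losartan plate, Aplnr at 51.6 and 0.774, and Angpt2, the Tie2 ligand that loosens vessels, at 22.96 and 0.0398. Apln, the ligand of Aplnr, was at 17.5 in cluster 7 and listed at 0 in 29 of 29 cells of cluster 3. Apln and its receptor were held mostly by cluster 7. On the control plate Aplnr was at 24.6 in cluster 7 and at 0 in 12 of 12 cells of cluster 12, and Apln was above 0 in 22 of 28 cells of cluster 7 and 1 of 12 of cluster 12. Esm1, a proteoglycan also used as a tip cell marker, went the other way. It was above 0 in 10 of 23 cells of cluster 12 (mean 56.2), 9 of 57 of cluster 7 (3.96) and no cell of cluster 3, which allows a share of cells above 0 of up to 2.61% there (counting error only).

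Basement membrane genes were higher as well, with more of them past 2-fold in cluster 7 than in cluster 12. Of 33 matrix genes 21 passed the filter, with a median log2 ratio of 1.45. In clusters 7 and 12, 12 were at least 2-fold higher and 3 lower (57.1% and 14.3%, against 16% and 15.4% of all genes). Cluster 7 alone had 13 higher and 3 lower (61.9% and 14.3%, against 16.3% and 15.2% of all genes). Its median was 1.53, against −0.02 over all genes. The 4 cells of cluster 12 had 6 and 8 (28.6% and 38.1%, against 15.3% and 48.3%), with a median of 0.46, against −0.90 over all genes. Col4a1, the collagen of basement membranes, was at 51.4 (range 21.96 to 98.7) in cluster 7, 35.3 in cluster 12 and 6.41 in cluster 3 on the losartan plate, and its partner Col4a2 at 67.8, 31.9 and 12.8. The laminin chain Lamb1 was above 0 in 24 of 24 cells of cluster 7 (mean 15.2), 1 of 4 of cluster 12 and 0 of 29 of cluster 3, and the linker Nid1 was at 10.4 in cluster 7 against 0.381 in cluster 3. Sparc, which binds collagen, was at 340 in cluster 7 and 34.6 in cluster 12 against 82.9 in cluster 3, so only cluster 7 was above cluster 3 on this plate. On the control plate it was at 382 and 156.8 in clusters 7 and 12. The lowest of the 3 that were lower was Mgp, a calcification inhibitor of arteries, at 22.1 in cluster 7 and 787 in cluster 3, where it reached 6393 in single cells. The others were the laminin chain Lamb2, with a log2 ratio of −2.14, and Sparcl1, at −1.45 (0.19 at the 75th-percentile scale). Of the membrane-type matrix metalloproteinases, Mmp14 was above 0 in 15 of 24 cells of cluster 7 (8.20), 0 of 4 of cluster 12 and 2 of 29 of cluster 3 (0.459), and Mmp15 in 8, 1 and 0 of them. On the control plate Mmp14 was above 0 in 19 of 28 cells of cluster 7 and 0 of 12 of cluster 12.

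Genes of veins were higher in cluster 7 than in cluster 3, and genes of arteries were lower in both clusters. Of 20 venous genes 17 passed, and their median of 1.13 in clusters 7 and 12 together was −0.69 on the losartan+anti-PD1 plate. In these clusters 10 were at least 2-fold higher and 0 lower (58.8% and 0%, against 16% and 15.4% of all genes). Cluster 7 alone had 10 higher, 0 lower and a median of 1.27. The 4 cells of cluster 12 had 3 higher and 8 lower (17.6% and 47.1%, near the 15.3% and 48.3% of all genes). Their median was −0.83, close to the −0.90 of all genes. Darc, the chemokine receptor of venules, was at 210.8 in cluster 7, 0 in cluster 12 and 18.1 in cluster 3 on the losartan plate, and Selp, the P-selectin of venules, at 3.09, 0 and 0.165. Darc was above 0 in 27 of 57 cells of cluster 7, 0 of 23 of cluster 12 and 16.5% of cluster 3. Of 18 arterial genes 14 passed, and 12 were at least 2-fold lower and 0 higher (85.7% and 0%, against 15.4% and 16% of all genes). Their median was −2.41, and −2.24 in cluster 7 and −3.56 in cluster 12 alone, against −0.02 and −0.90 over all genes. Gkn3, a marker of brain arteries, was at 0 in all 80 members of the CD31-positive plates and above 0 in 30 cells of cluster 3 (26.1%, up to 2651), and Stmn2 was at 0 in the same 80 cells and above 0 in 26.1% of cluster 3. Hey1, a Notch target of arteries, was at 0.179 in cluster 7, 0 in cluster 12 and 30.4 in cluster 3 on the losartan plate, but at 19.9 in cluster 12 on the control plate, in 3 of 12 cells.

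Barrier genes were lower than in cluster 3. Of 29 blood-brain barrier transporters and carriers 27 passed, with a median log2 ratio of −1.84. In clusters 7 and 12, 18 were at least 2-fold lower (66.7%, against 15.4% of all genes) and 3 higher (11.1%, against 16%). Cluster 7 alone had 17 lower and 3 higher (63% and 11.1%, against 15.2% and 16.3%), with a median of −1.70. The 4 cells of cluster 12 had 24 and 1 (88.9% and 3.70%, against 48.3% and 15.3%). Their median was −3.30, against −0.90 over all genes. Slco1a4, a transporter of organic anions, was at 3.56 in cluster 7 and 22.5 in cluster 12 against 245.6 (up to 854) in cluster 3, and Slco1c1, which carries thyroid hormone, at 7.56, 0 and 130.7. Abcb1a, the efflux pump P-glycoprotein, was at 9.50, 19.2 and 46.1, and Itm2a, a membrane protein of brain endothelium, at 150.7, 1.07 and 610. Not every transporter followed: Slc38a5, a glutamine transporter of venous brain endothelium, was at 120 in cluster 7 and 20.5 in cluster 3, and at 0 in all 23 cells of cluster 12. Of 15 junction genes 2 were at least 2-fold higher and 5 lower (13.3% and 33.3%, against 16% and 15.4% of all genes). Of 17 Wnt pathway genes 1 was higher and 5 lower (5.88% and 29.4%). The medians of these 2 lists were −0.82 and −0.57. Both turn positive at the 75th-percentile scale, at 0.42 and 0.61. Cluster 7 alone was at −0.61 and −0.40, which turn to 0.64 and 0.68. The 4 cells of cluster 12 did not turn: they were at −1.87 and −2.09, and at −1.71 and −1.60 at that scale. All genes of cluster 12 over 3 were at −0.90, and at −0.73 at that scale. Tnfrsf19, a Wnt target, was at 0.584 in cluster 7, 0 in cluster 12 and 13.2 in cluster 3.

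Genes of antigen presentation and interferon response were higher than in cluster 3 on the losartan plate, and cluster 3 itself varied between plates. Of 40 interferon-induced genes 35 passed, with a median log2 ratio of 0.99. In clusters 7 and 12, 17 were at least 2-fold higher (48.6%, against 16% of all genes) and 1 was lower (2.86%, against 15.4%). The 18 MHC class I genes had a median of 1.03, with 9 higher (50%) and 0 lower, and −0.03 on the losartan+anti-PD1 plate. B2m, the light chain of class I, was at 1237 in cluster 7, 2894 in cluster 12 and 590 in cluster 3 on the losartan plate, but at 1369 in cluster 3 on the anti-PD1 plate, beside 1324 in cluster 7 on the control plate. All 4 MHC class II genes that passed were higher, with a median of 3.39, and −1.05 on the losartan+anti-PD1 plate. Cd74, the invariant chain of class II, was at 24.4 in cluster 7, 58.1 in cluster 12 and 0 in 29 of 29 cells of cluster 3 on the losartan plate, and at 112.8, 12.9 and 102.9 on the losartan+anti-PD1 plate. Malignant cells of the control plate also held Cd74, at 23.4 in 31 of 33 cells, and the part of their RNA in these levels was not tested. In the 4 cluster 7 cells of the losartan+anti-PD1 plate, Ubd, an interferon-induced ubiquitin-like protein, was at 644 and Ccl19, a chemokine that draws T cells and dendritic cells, at 647, beside 28.2 and 61.6 on the losartan plate and 10.2 and 11.8 on the control plate. Both were at 0 in the 7 cells of cluster 12 on that plate. Serpina3g, a protease inhibitor, and Cd38, an enzyme that degrades NAD, were also among the 10 highest ratios. These 10 were taken only among genes with the same sign on the losartan and losartan+anti-PD1 plates. Cluster 3 was at 0 for Serpina3g and 0.0116 for Cd38 on the losartan plate, but at 37.9 and 13.2 on the losartan+anti-PD1 plate.

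The other genes at the ends of this comparison, with the same sign on the losartan and losartan+anti-PD1 plates, were less known in vessels. Fam167b was above 0 in 24 of 24 cells of cluster 7 and 1 of 4 of cluster 12 on the losartan plate and in 25 of 28 and 6 of 12 on the control plate, against 0 of 29 cells of cluster 3 on the losartan plate and 2 of 78 on the anti-PD1 plate. Pdlim1, a cytoskeletal adaptor, was at 43.4 in cluster 7, 1.17 in cluster 12 and 0 in cluster 3. At the other end, Pcp4l1 was at 0.663, 0 and 147.2, Degs2, an enzyme of sphingolipid synthesis, at 0.664, 0 and 142.6, and Prom1, known as CD133, at 1.002, 0 and 67.9. Eps8l2, an actin regulator, was at 0 in all 80 members and above 0 in 36.5% of cluster 3. Pcp4l1 was not absent from every member: 5 of 7 cells of cluster 12 on the losartan+anti-PD1 plate held it, at a mean of 39.2.

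When the clusters were set against each other, barrier and sprouting genes stood higher in cluster 7, and Plvap and lipid genes in cluster 12. On the control plate (28 against 12 cells), 2573 of 7330 genes (35.1%) were at least 2-fold higher in cluster 7 and 1216 (16.6%) in cluster 12, and the median log2 ratio over all genes was 0.43. Scaling by the 75th percentile moved that median by 0.91, to 1.34, so a list near 0.43 stood with the rest of the genes and not above it. Of the 2573 genes, 80.7% kept their sign on the losartan plate and 68% on the losartan+anti-PD1 plate, against 71.5% and 57.2% of all genes tested. Of the 1216, 41.4% and 53.2% did, against 28.4% and 37.8%. The 10 highest genes of cluster 7 were higher in cluster 7 on both other plates, and of the 10 highest of cluster 12, 9 were higher in cluster 12 on the losartan plate and 10 on the losartan+anti-PD1 plate. Ntf3 was at 0 on both sides of the losartan plate. The clusters were made from the cells of all plates together, so agreement between plates was partly set in advance and is no test. Of the 1381 genes above 0 in at least 75% of cluster 7, 14.7% were also above 0 in at least 75% of cluster 12, and these were 91.9% of the genes so common in cluster 12.

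**Figure D3:**
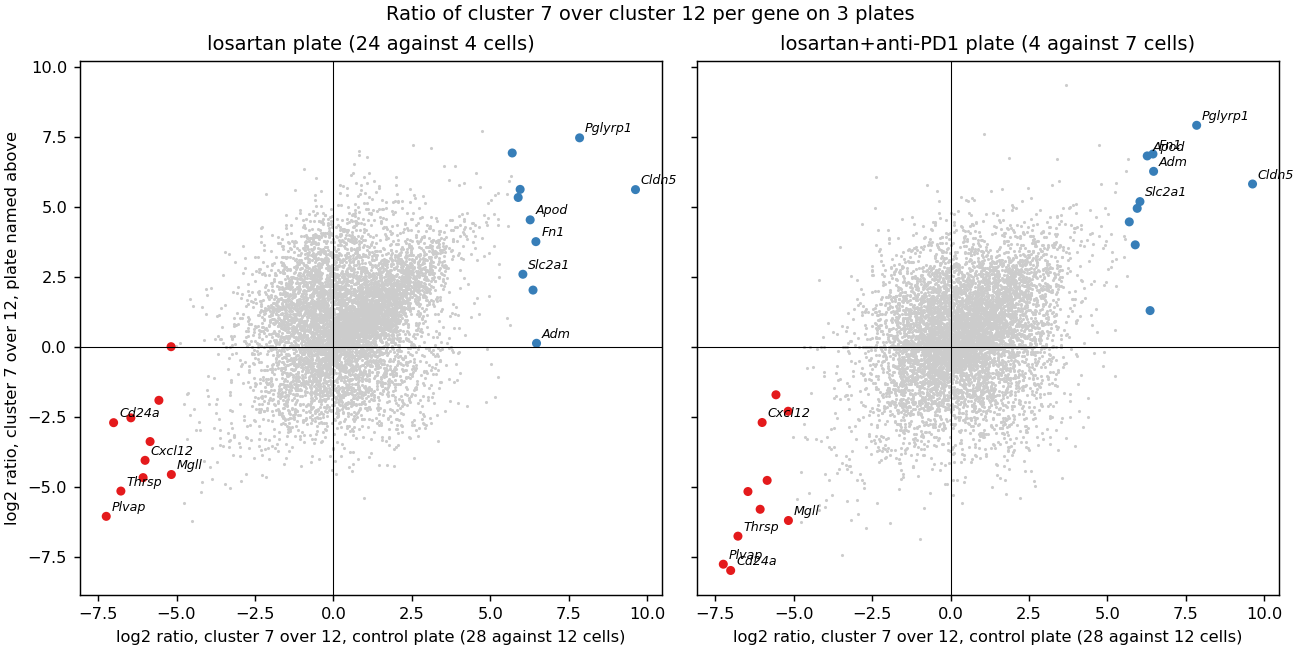
Log2 ratio of cluster 7 over cluster 12 for each of 7330 genes on the control plate (x axis, 28 against 12 cells) against the same ratio on the losartan plate (left, 24 against 4 cells) and the losartan+anti-PD1 plate (right, 4 against 7 cells), with the 10 highest genes in blue and the 10 lowest in red. Cldn5 lies far up and to the right and Plvap far down and to the left in both panels.

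The clearest divide was between Cldn5 and Plvap. Cldn5 was at 852 (range 206.5 to 1969) in cluster 7 and 0.0831 (at most 0.997) in cluster 12 on the control plate, a log2 ratio of 9.62, and at 987 and 19.2 on the losartan plate and 932 and 15.6 on the losartan+anti-PD1 plate. The cells did not overlap on the control plate. On the losartan plate the lowest cell of cluster 7 was at 24.97 and the highest of cluster 12 at 76.7, so single cells overlapped there. Plvap was at 0.294 and 194.4 on the control plate, 2.56 and 237.4 on the losartan plate and 0 and 217.9 on the losartan+anti-PD1 plate. Both genes were above 0 in 5 of 57 cells of cluster 7 and 3 of 23 of cluster 12. Among cells with at most 2000 genes detected, where 16 cells of cluster 12 can be set beside 28 of cluster 3, Cldn5 was above 0 in 1 of 16 and 28 of 28 and Plvap in 16 of 16 and 0 of 28. Only 1 cell of cluster 7 was that shallow, with Cldn5 at 858 and Plvap at 0. The single member from a CD45-negative plate, a cluster 7 cell listed in expected counts, had 870 counts of Cldn5 and 0 of Plvap. Cldn5 is on chromosome 16 at 18776847 to 18778262 (plus strand) and Plvap on chromosome 8 at 71497765 to 71511752 (minus strand) of GRCm38.

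Promoters of 4 genes from the ends of this comparison are given as examples. Cldn5, Slc2a1 and Slc38a5 were high in cluster 7. Cish, a STAT5 target that damps cytokine signaling, had a higher mean in cluster 12, but 1 cell made most of it on the control plate. Each promoter runs from 250 bases before the start to 50 after it on the gene's strand, from RefSeq on GRCm38.p6. Capitals mark ACGTG, the core of the hypoxia response element, or TTCNNNGAA, the STAT motif, on either strand.
Cldn5 (chr16:18776597-18776896): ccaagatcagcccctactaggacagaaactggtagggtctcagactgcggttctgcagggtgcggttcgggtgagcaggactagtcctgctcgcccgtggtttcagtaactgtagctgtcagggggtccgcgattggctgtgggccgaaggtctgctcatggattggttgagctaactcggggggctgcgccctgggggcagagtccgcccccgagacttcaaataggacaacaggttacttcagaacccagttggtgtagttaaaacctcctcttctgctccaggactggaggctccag
Slc2a1 (chr4:119108495-119108794): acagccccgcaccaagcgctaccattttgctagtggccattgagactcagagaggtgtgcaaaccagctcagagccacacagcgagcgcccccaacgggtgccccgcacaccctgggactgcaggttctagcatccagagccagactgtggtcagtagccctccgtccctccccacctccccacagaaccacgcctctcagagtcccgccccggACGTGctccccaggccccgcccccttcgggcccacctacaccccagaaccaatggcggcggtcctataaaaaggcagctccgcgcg
Slc38a5 (chrX:8271131-8271430): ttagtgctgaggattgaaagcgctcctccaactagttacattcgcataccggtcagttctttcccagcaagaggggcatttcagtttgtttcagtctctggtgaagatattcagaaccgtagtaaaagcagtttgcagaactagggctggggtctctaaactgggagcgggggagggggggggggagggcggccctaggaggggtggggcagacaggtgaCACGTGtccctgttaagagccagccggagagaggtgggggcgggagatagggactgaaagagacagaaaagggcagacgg
Cish (chr9:107296409-107296708): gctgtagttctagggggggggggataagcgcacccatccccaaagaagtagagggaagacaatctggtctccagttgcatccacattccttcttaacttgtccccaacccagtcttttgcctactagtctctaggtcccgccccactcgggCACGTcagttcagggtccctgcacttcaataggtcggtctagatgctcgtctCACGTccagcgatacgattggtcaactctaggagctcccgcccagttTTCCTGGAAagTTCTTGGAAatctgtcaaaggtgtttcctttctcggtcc

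The window of Slc2a1 held ACGTG once, that of Slc38a5 held CACGTG, which reads as ACGTG on both strands, and that of Cish held CACGT, the same core on the other strand, at 2 places and the STAT motif at 2 places. That of Cldn5 held neither. ACGTG was in 3 of the 7 windows found for the 10 highest genes of cluster 7 and in 3 of 7 for cluster 12, and in 19.7% of 27025 promoters. The STAT motif was in 1 of 7 windows for each cluster, which for cluster 12 was that of Cish, and in 8.47% of all promoters. A match is a description of the letters and not a site of binding.

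Barrier genes were mostly higher in cluster 7. Of 27 transporters and carriers that passed, 15 (55.6%, against 35.1% of all genes) were at least 2-fold higher in cluster 7. Another 3 were higher in cluster 12 (11.1%, against 16.6%), and the median log2 ratio was 1.91. Single genes did not follow the comparison with cluster 3. Slco1a4, at −5.09 there, was at 0.32 for cluster 7 over 12, and Mfsd2a, at 5.57 for cluster 7 over 12, was at −0.33 against cluster 3 (1.51 at the 75th-percentile scale). Slc2a1 was at 109.1 (range 21.2 to 335) in cluster 7 and 0.680 (at most 3.26) in cluster 12 on the control plate, and its cells did not overlap there. The means were 98.1 and 15.5 with losartan and 135.6 and 2.75 with losartan+anti-PD1. Mfsd2a, the lipid transporter that restrains transcytosis, was at 46.4 in cluster 7 and 0 in 12 of 12 cells of cluster 12, and Slc38a3, a glutamine carrier, at 36.7 and 0. Slc38a5 was at 50.8 and 0. Pglyrp1, a peptidoglycan receptor found in brain endothelium, was above 0 in 56 of 57 cells of cluster 7 (mean 203.5) and 0 of 23 of cluster 12, which allows a share of cells above 0 of up to 13.04% (counting error only). A value of 0 does not show that a cell lacks the gene. Going the other way were Car4, a carbonic anhydrase of capillaries (0.0326 and 17.8), Slc6a6, the taurine transporter (1.11 and 32.9), and Slc3a2, the heavy chain of amino acid carriers (49.6 and 133.3). Abcb1a and Abcg2, the efflux pumps, were at 6.30 and 8.30 and at 17.1 and 17.3, so neither differed by 2-fold, and both ratios turn positive at the 75th-percentile scale (1.52 and 0.32).

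Among cells with at most 2000 genes detected, several barrier genes were above 0 less often in cluster 12 than in cluster 3. The 16 cells of cluster 12 had a median of 1448 genes and the 28 of cluster 3 had 1775, so the numbers of genes were closer but not matched. The plates differed too: 9 of the 16 were from the control plate, 2 from the losartan plate and 5 from the losartan+anti-PD1 plate, against 19 from the anti-PD1 plate and 9 from the losartan plate in cluster 3, so cluster, plate and treatment cannot be told apart in these values. Slc2a1 was above 0 in 3 of 16 cells of cluster 12 and 26 of 28 of cluster 3, Pglyrp1 in 0 and 18, Slco1a4 in 2 and 27, Slco1c1 in 0 and 26 and Slc38a3 in 0 and 18. Egfl7, by contrast, was above 0 in 15 of 16 and 28 of 28, and Igfbp7 in 16 and 18.

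Of 15 junction genes 6 were at least 2-fold higher in cluster 7 (40%, against 35.1% of all genes). Higher in cluster 12 was 1 (6.67%, against 16.6%), and the median of 0.41 was close to that of all genes. Lsr, the receptor of tricellular junctions, was above 0 in 24 of 28 and 1 of 12 cells (32.4 and 0.103) and Ocln, occludin, in 16 and 0 (9.53 and 0). Junction genes of all endothelium were at like levels: Cdh5 was at 21.3 and 15.7, and Tjp1, the scaffold ZO-1, at 11.3 and 13.7, with a ratio of −0.25 that is 1.10 at the 75th-percentile scale. Jam2, an adhesion molecule, was at 2.37 and 18.4. Of 16 Wnt pathway genes 7 were higher in cluster 7 (43.8%, against 35.1% of all genes) and 3 in cluster 12 (18.8%, against 16.6%). Both shares were near those of all genes, and the median was 0.89, against 0.43 over all genes. Lef1, the transcription factor through which Wnt acts, was above 0 in 43 of 57 cells of cluster 7 and 0 of 23 of cluster 12. At most 2000 genes detected, Lef1 was above 0 in 0 of 16 cells of cluster 12 and 25 of 28 of cluster 3. Apcdd1, a Wnt inhibitor and target, was at 8.72 and 1.72, and Fzd4, the receptor of norrin, at 1.90 and 12.3. Sox17, a factor downstream of Wnt, was at 5.88 and 19.7, the latter in 4 of 12 cells.

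Against cluster 7, genes of fenestrae and of lipid handling led cluster 12. The median of 14 fenestration and caveola genes was −0.69, which is 0.66 at the 75th-percentile scale. Of the 14, 2 were at least 2-fold higher in cluster 7 (14.3%, against 35.1% of all genes) and 6 in cluster 12 (42.9%, against 16.6%). Beside Plvap these were Gpihbp1 (4.73 in cluster 7 and 90.6 in cluster 12, in 6 of 28 and 5 of 12 cells), Ppap2b, a lipid phosphatase (5.33 and 86.7), Sdpr, a cavin of caveolae (1.17 and 24.4), and Emcn (44.7 and 314). Emcn did not keep this: on the losartan plate it was at 65.9 and 51.5. Cav1, the coat protein of caveolae, was at 8.12 and 6.26, so caveolar genes did not move as 1 group. Of 13 lipid genes 8 were higher in cluster 12 (61.5%, against 16.6% of all genes). Another 4 were higher in cluster 7 (30.8%, near the 35.1% of all genes). The median of the 13 was −1.56, which is −0.01 at the 75th-percentile scale and 0.12 with means of ln(TP100K + 1). Lpl was at 18.7 in cluster 12 and 0.0318 in cluster 7, and Mgll, which splits monoglycerides, at 36.6 and 0.0494, in 15 of 23 and 2 of 57 cells over all plates. Thrsp, a regulator of lipid synthesis, was above 0 in 11 of 23 cells of cluster 12 (mean 95.5) and 0 of 57 of cluster 7. Cd300lg, a receptor of capillary endothelium of peripheral tissues, was above 0 in 16 of 23 cells of cluster 12, 1 of 57 of cluster 7 and 2 cells of cluster 3 (1.74%). Fabp4 and Cd36, the fatty acid carriers that such capillaries are known for, were not part of it. Cd36 was at 0 in every cell of the 3 clusters and Fabp4 was above 0 in 1 of 23 cells of cluster 12. Pltp, the phospholipid transfer protein, was higher in cluster 12 than 7 (87.3 and 22.1) but higher still in cluster 3 (291 on the losartan plate). The lipid genes of cluster 7 were Apod, an apolipoprotein (75.99 and 0), and Angptl4, an inhibitor of Lpl (20.6 and 0). Neither list led cluster 12 against cluster 3. There the 4 cells of cluster 12 on the losartan plate had medians of −1.24 (fenestration) and −2.86 (lipid), against −0.90 over all genes. Of the fenestration genes 30.8% were higher and 53.8% lower, and of the lipid genes 22.2% and 55.6%, against 15.3% and 48.3% of all genes.

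**Figure D4:**
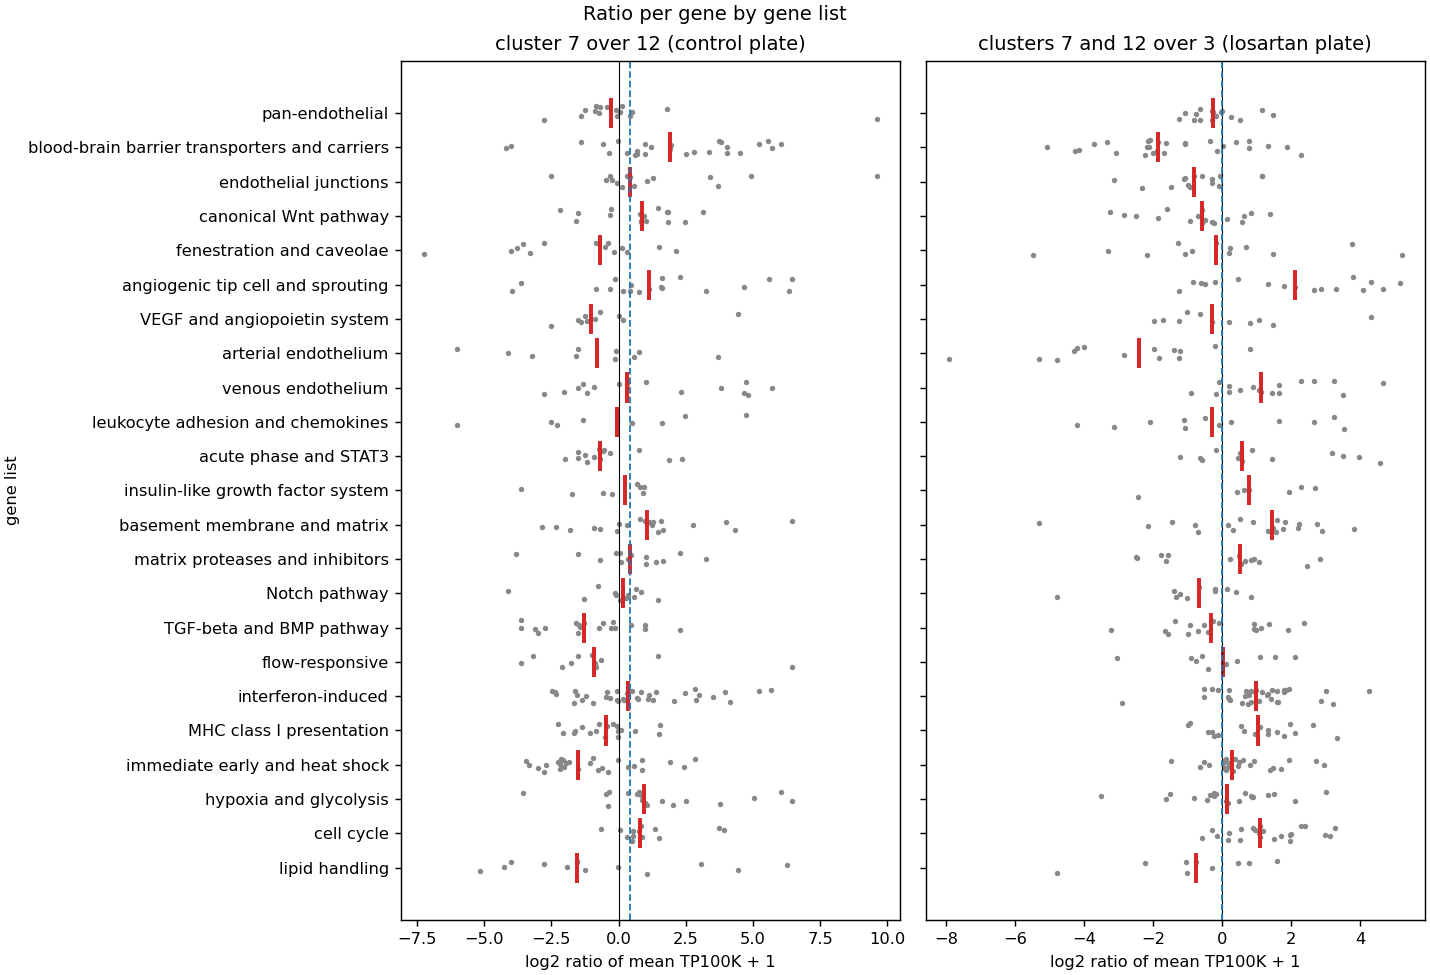
Log2 ratio of mean TP100K plus 1 (x axis) of each tested gene of 23 gene lists (y axis), for cluster 7 over 12 on the control plate (left) and clusters 7 and 12 over 3 on the losartan plate (right), with a red bar at the list's median and a dashed line at the median of all genes (0.43 and −0.01). Blood-brain barrier genes lie to the right in the left panel (median 1.91) and to the left in the right panel (−1.84), whereas sprouting genes lie to the right in both (1.12 and 2.11).

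Sprouting and matrix genes were more often higher in cluster 7. Of 19 sprouting genes 10 (52.6%, against 35.1% of all genes) were at least 2-fold higher in cluster 7 and 2 in cluster 12 (10.5%, against 16.6%), with a median of 1.12. Adm, the vasoactive peptide adrenomedullin, was at 87.6 (18 of 28 cells, up to 677) and 0 on the control plate, Trp53i11 at 80.99 and 0, Apln at 52.8 and 4.69 and Lxn, a protease inhibitor, at 47.8 and 0. Dll4, the Notch ligand of tip cells, did not differ by 2-fold, at 15.8 and 17.3 (log2 ratio −0.12, and 1.08 at the 75th-percentile scale), and Angpt2 was at 24.9 and 22.1, where the second value came from 2 of 12 cells. Of 20 matrix genes 10 (50%) were higher in cluster 7 and 3 in cluster 12, the second share near that of all genes, with a median of 1.05. Fn1, fibronectin, was above 0 in 28 of 28 cells of cluster 7 at 14.2 to 259.5 and 0 of 12 of cluster 12, Bgn, biglycan, was at 47.3 and 1.39, and Col18a1, the source of endostatin, at 17.1 and 0.139. Col15a1, its relative, was above 0 in 10 of 23 cells of cluster 12 and in no cell of clusters 7 and 3. Vwf, the clotting factor carrier, was above 0 in 57 of 57 cells of cluster 7 and 2 of 23 of cluster 12, and in 0 of 16 and 15 of 28 cells of clusters 12 and 3 with at most 2000 genes detected. Timp3, an inhibitor of metalloproteinases, was at 4.46 in cluster 7 and 75.4 in cluster 12. Hypoxia and glycolysis genes had a median of 0.93, against 0.43 over all genes. Of 18, 1 was higher in cluster 12 (5.56%, against 16.6%) and 8 in cluster 7 (44.4%, near the 35.1% of all genes). Beside Adm and Slc2a1 these included Pgk1, an enzyme of glycolysis (18.1 and 0.404), and Ankrd37 (31.6 and 0), whereas Ndrg1 was at 0.433 and 16.01. Gsta4 and Cpe were among the 10 highest of cluster 7, at 60.7 and 58.1, and at 0 in 12 of 12 cells of cluster 12.

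Receptors and signals that a vessel meets from blood flow and from bone morphogenetic proteins were higher in cluster 12 on the control plate. Kdr, the main VEGF receptor, was at 18.03 in cluster 7 and 44.01 in cluster 12, and Flt1, the decoy VEGF receptor, at 14.7 and 40.9. Both ratios turn positive at the 75th-percentile scale (0.39 and 0.08). Cluster 12 had the higher mean of Kdr on the other plates too, at 44.8 against 17.2 and 30.4 against 16.6, and cluster 3 was at 6.99 on the losartan plate, 15.1 on the anti-PD1 plate and 13.3 on the losartan+anti-PD1 plate. Tek, the receptor of angiopoietins, was at 4.76 and 32.3, and Flt4, the VEGF-C receptor, at 8.91 and 21.6, a ratio that also turns positive at that scale (0.42). The 10 VEGF and angiopoietin genes that passed had a median of −1.04, and 0.51 at that scale. Of these, 1 was at least 2-fold higher in cluster 7 (10%, against 35.1% of all genes) and 5 in cluster 12 (50%, against 16.6%). Of 19 TGF-beta and BMP genes 10 were at least 2-fold higher in cluster 12 (52.6%, against 16.6% of all genes). Higher in cluster 7 was 1 (5.26%, against 35.1%). The median of the 19 was −1.29, which is 0.09 at the 75th-percentile scale and 0.20 on either other plate. Id1 and Id3, the direct targets of BMP signaling, were at 71.3 and 215.2 and at 180 and 507, and cluster 12 was above cluster 7 in both on the losartan plate (353 against 59.9 for Id1) and the losartan+anti-PD1 plate (194.6 against 6.39). Bmp6, Smad6 and Smad7, a ligand and 2 inhibitors of the pathway, were at 12.4, 10.8 and 8.34 in cluster 12 and 0.0915, 0.359 and 0.167 in cluster 7. Klf2 and Klf4, factors induced by laminar flow, were at 4.75 and 69.8 and at 6.92 and 71.8, and the 12 flow-responsive genes had a median of −0.93, which is 0.31 at the 75th-percentile scale. Cxcl12, a chemokine of arteries and capillaries, and Gas6, a ligand of TAM receptors, were present in cluster 12 and in cluster 3 but nearly absent from cluster 7. Cxcl12 was at 64 in cluster 12 and 0.0148 in cluster 7 on the control plate and at 90.02 in cluster 3 on the losartan plate, and Gas6 at 51.7, 0.795 and 28.4.

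Immediate early and heat shock genes, which are known to be induced when tissue is dissociated, also led cluster 12. Of 27 that passed, 15 were at least 2-fold higher in cluster 12 (55.6%, against 16.6% of all genes). Another 3 were higher in cluster 7 (11.1%, against 35.1%). The median of the 27 was −1.52, which is −0.12 at the 75th-percentile scale and 0.21 among cells with 2000 to 6000 genes (24 against 3). Hspb1, a small heat shock protein, was at 78.3 in cluster 7 and 869 in cluster 12, with 5967 in the highest cell of cluster 12 on the losartan+anti-PD1 plate, and Zfp36, which degrades cytokine mRNA, at 11.4 and 96.97. Fos and Jun were at 41.1 and 187.5 and at 91.1 and 421. With at most 2000 genes detected, Zfp36 was at 189.4 in 16 cells of cluster 12 and 12.2 in 28 of cluster 3, and Hspb1 at 1558 and 317. Cell sorting and dissociation were shared by all cells of a plate, and their part in this difference was not tested. Myc, an immediate early growth regulator, went the other way, at 6.82 in cluster 7 and 0.0998 in cluster 12.

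Interferon genes did not set the clusters apart as a list, with a median of 0.35, but single members were divided. Of 37, 14 were higher in cluster 7 (37.8%, against 35.1% of all genes) and 8 in cluster 12 (21.6%, against 16.6%). Ifitm1, a restriction factor of viral entry, was above 0 in 38 of 57 cells of cluster 7 (mean 60.7) and 0 of 23 of cluster 12, and in 13% of cluster 3. Irgm1, a GTPase induced by interferon gamma, was at 57.4 and 0.546 on the control plate but at 31.5 and 67.9 on the losartan plate. The 5 MHC class II genes that passed were at least 2-fold higher in cluster 12, as were 16.6% of all genes. Their median was −1.53, which is 0.31 at the 75th-percentile scale, 0.58 on the losartan+anti-PD1 plate and 1.83 among cells with 2000 to 6000 genes. H2-Ab1 was at 22.5 in cluster 7 and 85.6 in cluster 12, the latter from 4 of 12 cells, and at 26.5 in malignant cells of the same plate. Cd274, the ligand of PD-1, was above 0 in 8 of 28 cells of cluster 7 (0.823) and 2 of 12 of cluster 12 (4.66), and Pvrl2, a ligand of TIGIT, in 26 and 0 (16.4 and 0).

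Among the remaining genes at the cluster 12 end, Cd24a, a surface glycoprotein, was above 0 in 16 of 23 cells of cluster 12 and 3 of 57 of cluster 7. On the losartan plate, however, only 1 of 4 cells of cluster 12 held it. Mfap2, a protein of microfibrils, was above 0 in 9 of 23 and 0 of 57 cells, and in 28 of 33 malignant cells of the control plate, at 6.23 there against 65.9 in cluster 12. Lmcd1, a transcriptional coregulator, was at 86.6 in cluster 12 and 0 in cluster 7, and Ntf3, a neurotrophin, at 35.1 in 4 of 12 cells and 0. Cish was at 53.4 in cluster 12, of which 1 cell at 593 made most.

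The other lists are given by their medians, beside 0.43 over all genes for cluster 7 over 12 and −0.01 for clusters 7 and 12 over 3. For cluster 7 over 12, some stood apart from all genes. Arterial, acute phase and MHC class I genes were at −1.23, −1.13 and −0.89 from that median (−0.87, −0.91 and −0.69 at the 75th-percentile scale). Checkpoint ligands were at 0.95 from it (0.67), over 5 genes. For cluster 7 over 12, the median was −0.81 over 10 arterial genes (0.47 at the 75th-percentile scale), 0.30 over 15 venous genes, −0.71 over 14 acute phase genes (0.42), −0.46 over 18 MHC class I genes (0.65), −0.04 over 9 leukocyte adhesion genes (1.57) and −0.27 over 16 pan-endothelial genes (1.04). It was 0.41 over 14 proteases and their inhibitors, 0.22 over 8 insulin-like growth factor genes, 0.16 over 12 Notch genes, 1.37 over 5 checkpoint ligands, 0.80 over 14 cell cycle genes and −0.39 over 4 renin-angiotensin genes (0.42). For clusters 7 and 12 over 3, the median was 0.57 over 13 acute phase genes, 0.78 over 7 insulin-like growth factor genes, 0.52 over 14 proteases and inhibitors, 0.66 over 4 checkpoint ligands, 0.29 over 26 immediate early and heat shock genes, 0.15 over 20 hypoxia genes and 0.04 over 11 flow-responsive genes. It was below 0 but turned positive at the 75th-percentile scale over 13 fenestration genes (−0.17 and 1.21), 11 VEGF genes (−0.29 and 0.84), 12 leukocyte adhesion genes (−0.29 and 0.65), 11 Notch genes (−0.67 and 0.14), 18 TGF-beta and BMP genes (−0.33 and 0.63), 9 lipid genes (−0.75 and 0.56), 4 renin-angiotensin genes (−0.12 and 0.35) and 16 pan-endothelial genes (−0.26 and 0.91).

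**Figure D5:**
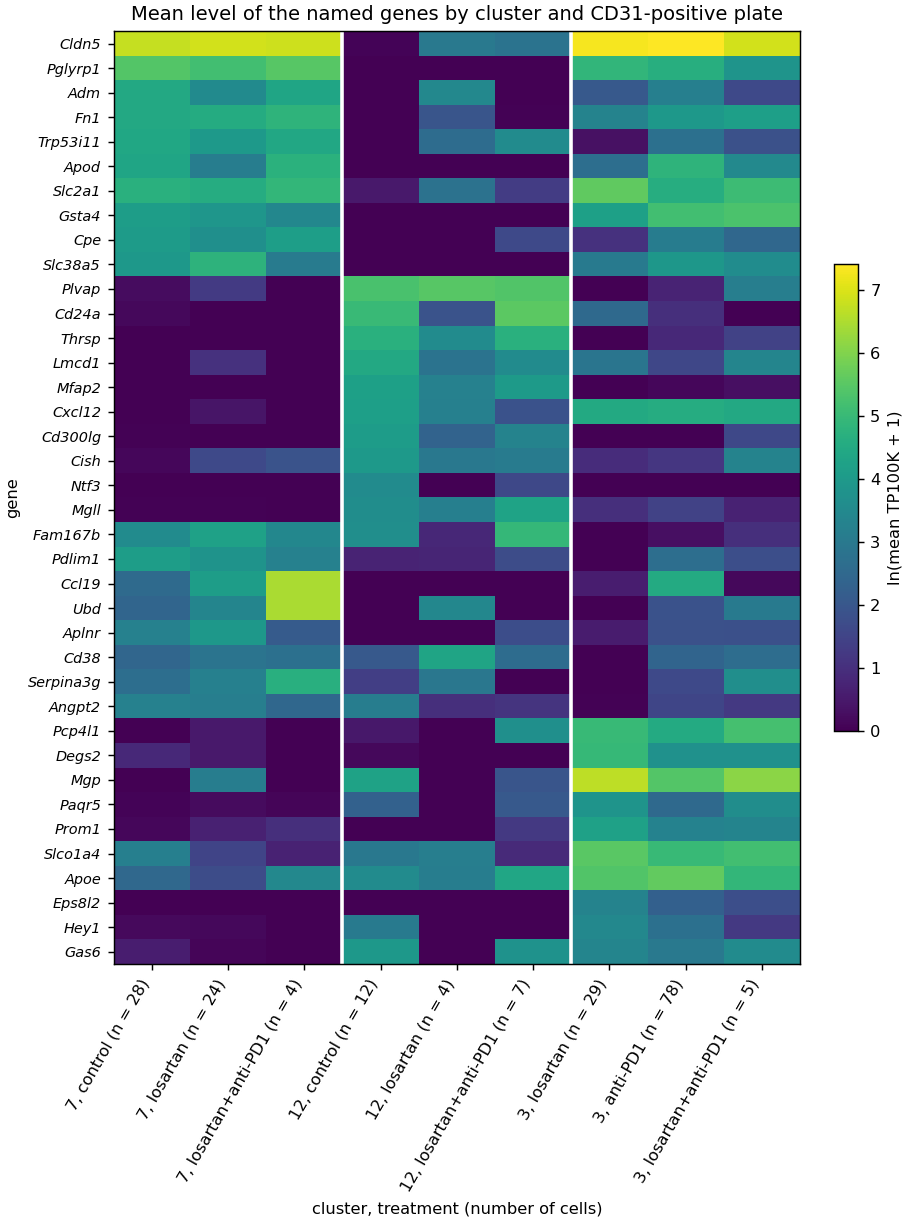
Mean level of 38 genes at the ends of both comparisons, as ln(mean TP100K + 1) in colour, for clusters 7, 12 and 3 on each CD31-positive plate (columns, with the number of cells). The ends against cluster 3 were taken only among genes with the same sign on the losartan and losartan+anti-PD1 plates. The 10 genes from Cldn5 to Slc38a5 are high in the 3 columns of cluster 7 and mostly near 0 in those of cluster 12, the 10 from Plvap to Mgll are the reverse, and the 10 from Pcp4l1 to Gas6 are high in cluster 3.

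Cluster 7 varied within itself along the sprouting and venous genes. Cells with much Apln tended to hold Angpt2 (Spearman rho 0.77 over 28 control cells and 0.54 over 24 losartan cells), and Adm followed Angpt2 (0.60 and 0.59). Apln and Adm went together on the control plate (0.61) but hardly on the losartan plate (0.14). Slc38a5, the venous transporter, followed Aplnr (0.65 and 0.80) and ran against Angpt2 (−0.62 and −0.45) and Apln (−0.51 and −0.34). Apln ran against Lrg1 on the losartan plate (−0.68) and less so on the control plate (−0.26), and against Darc at −0.65 and −0.12. The ligand Apln and its receptor Aplnr did not go together, at −0.15 and −0.38: of 28 control cells 16 held both, 6 Apln only and 5 Aplnr only. The number of genes detected had a rho of −0.09 and 0.36 with Apln, −0.10 and 0.35 with Angpt2, 0.54 and 0.31 with Slc38a5 and 0.40 and 0.30 with Aplnr. The cells of a plate share their library preparation, and the pairs were chosen after their values were seen, so these values are a description.

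Cycling cells were found in cluster 7. At least 4 of 8 cell cycle genes were above 0 in 11 of 57 cells of cluster 7, 0 of 23 of cluster 12 and 3 cells of cluster 3, all on the plates with anti-PD1. The control plate held 2 of these 11 cells, the losartan plate 8 and the losartan+anti-PD1 plate 1. Mki67 was above 0 in 2 of 28 and 9 of 24 cells of cluster 7 and Top2a, which untangles DNA before division, in 3 and 8. Of 23 cell cycle genes that passed on the losartan plate, 14 (60.9%, against 16% of all genes) were at least 2-fold higher in clusters 7 and 12 than in cluster 3. Of these 23 genes 0 were lower, and the median was 1.10. In the 4 cells of cluster 12 alone 1 was higher and 7 lower (4.35% and 30.4%, against 15.3% and 48.3% of all genes). The median there was −0.18, against −0.90 over all genes. Cell cycle calls need several genes per cell, and cluster 12 had the fewest genes detected. Cluster 3 had fewer than cluster 7 too, with a median of 2151 against 3977 on the losartan plate. Within cluster 7 the number of genes detected had a rho of 0.46 (control) and 0.45 (losartan) with Cdk1, and 0.54 and 0.26 with Top2a. The part of this gap in the cell cycle values was not tested.

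Only cluster 7 had enough cells to set losartan beside control, at 24 against 28 cells on 1 plate each. Of 8166 genes 461 (5.65%) were at least 2-fold higher with losartan and 387 (4.74%) in control. The median log2 ratio was 0.02, and plate and treatment cannot be told apart. Of 17 venous genes that passed, 8 were at least 2-fold higher with losartan and 0 lower, and their median was 0.99 on the log2 scale (0.68 at the 75th-percentile scale). Darc was at 210.8 and 25.8, Lrg1 at 225.9 and 61.3, Slc38a5 at 120 and 50.8 and Selp at 3.09 and 0.129. Of 18 sprouting genes 4 were lower and 1 higher, with a median of −0.23. Apln was at 17.5 and 52.8 and Adm at 33.6 and 87.6, whereas Aplnr, the 1 that was higher, was at 51.6 and 24.6 and Angpt2 at 22.96 and 24.9. Of 25 cell cycle genes 13 were higher and 0 lower, with a median of 1.04, and of 37 interferon-induced genes 0 were higher and 7 lower, with a median of −0.31. Among the last, Ifit3 was at 9.87 and 53.1. Of the barrier genes, Slco1a4 was at 3.56 and 23.2. The barrier pair did not differ by 2-fold, with Cldn5 at 987 and 852 and Slc2a1 at 98.1 and 109.1, nor did Kdr (17.2 and 18.03), Flt1 (11.96 and 14.7), Mmp14 (8.20 and 8.42) or Mmp15 (0.413 and 0.586). The metallothionein genes Mt1 and Mt2 were above 0 in 6 of 24 and 5 of 28 cells each, and 0 of 4 metallothionein genes passed the filter in either comparison between clusters. Agtr1a and Agtr1b, which encode the receptor that losartan blocks, were at 0 in all TECs of the CD31-positive plates. For Agtr1a this allows a share of cells above 0 of up to 5.26% in cluster 7 and 13.04% in cluster 12 (counting error only), and it does not show that the cells lack the receptor. Of 14 renin-angiotensin genes, 4 passed the filter, none at 2-fold against cluster 3.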

How the data were processed

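Endothelial cells of GL261 tumors were taken from CD31-positive plates, with 1 plate per treatment, and 1 member from a CD45-negative plate. The authors aligned reads to mm10 (TopHat, Bowtie and RSEM 1.2.8 per their processing notes), dropped cells under 1000 or over 8000 genes or under 20 housekeeping genes, and clustered the rest in Seurat (20 components, resolution 0.4). For the CD31-positive plates the deposited values are TPM, which keep no depth, and for the CD45-negative plates the deposited values are expected counts, not divided by length, used for that 1 cell only. Each cell was scaled to 100000 (TP100K). Groups of cells were compared by log2 of the ratio of means plus 1, over genes above 0 in at least 25% of either group, and 2-fold was called different. With 1 sample per treatment no test was run. Intervals are exact Clopper-Pearson and a count of 0 allows 3 of n. Named were the 10 genes at each end of a comparison and up to 4 per gene list, with 27 gene lists and 10 marker lists. Against cluster 3, the ends were taken only among genes with the same sign on the losartan and losartan+anti-PD1 plates. This left out genes such as Gkn3 (−7.92), Sdpr (−5.48) and Cd74 (4.92). Genes named outside this rule were chosen after their values were seen. The members and lists were chosen with earlier results of these data known. Doublets were not called, and no mitochondrially encoded gene was in the table. The code was tested on simulated data, with both sides drawn from cells of the same cluster and plate. The gap in genes detected between the clusters was therefore not part of that test. Scripts ran on Python 3.11.15 with NumPy 2.4.6, pandas 2.3.3, matplotlib 3.10.9 and SciPy 1.17.1, and positions are from GENCODE vM21.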

Additional observations from a re-analysis of the deposited data

How the results depend on the processing

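The share of tested genes past 2-fold depends on the added value, the filter and the scaling. For genes higher in cluster 7 than 12 (35.1%), it was 4.898% with 10 added, 33.54% with a filter of 50% of cells (1226 genes in place of 2573), 59.89% at the 75th-percentile scale, 48.05% on the losartan plate and 32.04% among cells with at most 3000 genes (3 against 21). For genes higher in cluster 12 (16.6%), it was 4.379%, 15.18% (555 genes) and 4.543% under the first 3 of these and 2.551% with means of ln(TP100K + 1). For genes higher in clusters 7 and 12 than in 3 (15.95%), it was 24.03% with 0.1 added, 2.581% with 10 added, 16.78% (557 genes) with the 50% filter, 43.56% at the 75th-percentile scale and 6.473% with all plates pooled. For genes higher in cluster 3 (15.4%), it was 3.285% with 10 added, 13.80% (458 genes) with the 50% filter, 14.05% (1872 genes) with no filter, 3.202% at the 75th-percentile scale, 4.002% with means of ln values, 9.099% with plates pooled and 26.61% on the losartan+anti-PD1 plate. For cluster 7 over 12, signs turned at the 75th-percentile scale for the markers Igfbp3 (0.27), Igfbp7 (1.35) and Lrg1 (0.75), for the VEGF (0.51), TGF-beta and BMP (0.09), MHC class II (0.31), pan-endothelial (1.04), fenestration (0.66), arterial (0.47), leukocyte adhesion (1.57), acute phase (0.42), flow-responsive (0.31), MHC class I (0.65) and renin-angiotensin (0.42) lists, and for the other genes and the lists against cluster 3 that are given with both values in the results. They turned with ln means for the TGF-beta and BMP (0.16) and lipid (0.12) lists, and in cells with 2000 to 6000 genes for the MHC class II (1.83) and immediate early (0.21) lists. The single other plates and the limit of 3000 genes were chosen after seeing the data. They turned Emcn (0.35, losartan), TGF-beta and BMP genes (0.20 on both) and MHC class II genes (0.58, losartan+anti-PD1), and, against cluster 3 on the losartan+anti-PD1 plate, Lrg1 (−0.69) and the venous (−0.69), MHC class I (−0.03) and class II (−1.05) lists. The cause was not tested. TPM carry no depth, cluster 12 had the fewest genes detected, and each treatment was 1 plate with no mouse named.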
